A study of Mus musculus with 6 samples.

Results

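STAT proteins carry cytokine signals from receptors at the cell surface to genes in the nucleus. The 6 STAT genes described here are Stat2, Stat3, Stat4, Stat5a, Stat5b and Stat6, taken by gene name from a table of 47643 genes. All 6 were among the 13235 genes with enough reads to be tested. They were measured by RNA sequencing of regulatory T cells, sorted from mouse bone marrow as CD4+ cells carrying a GFP reporter of FOXP3, the factor that defines these suppressive cells. The myeloma group is 3 libraries (replicates 3, 4 and 5) from mice injected with Vk*MYC cells, which give mice the plasma cell cancer multiple myeloma. The control group is 3 libraries (replicates 1, 3 and 5) from control mice, whose marrow cells were sorted by the same reporter. The sources used here give no strain, age or sex, no mock injection and no time after injection. Nothing ties a library to a separate day or cage, so the p-values cover only how these libraries vary. Total expected counts ran from 10240620 to 12008165 in myeloma libraries and from 11688282 to 13314631 in control libraries.

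A cytokine receptor brings together a pair of JAK kinases, which phosphorylate the receptor and then a STAT. The phosphorylated STAT pairs with another STAT through its SH2 domain and enters the nucleus. STAT2 joins IRF9 in the complex that answers type I interferon. STAT3 serves receptors of interleukin 6, 10 and 21, STAT4 the receptor of interleukin 12, and STAT6 that of interleukin 4. STAT5A and STAT5B are close paralogs that answer interleukin 2, on which regulatory T cells and their Foxp3 expression depend. Transcript levels say nothing of phosphorylation. In bulk RNA, fewer cells of a type and less RNA per cell cannot be told apart.

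The positions of the 6 genes are given on mm10 from GENCODE M21. Stat2 (ENSMUSG00000040033.15, chr10:128270559-128292849, plus strand) and Stat6 (ENSMUSG00000002147.18, chr10:127642986-127660957, plus strand) share chromosome 10. Stat5b (ENSMUSG00000020919.11, chr11:100780731-100850724, minus strand), Stat5a (ENSMUSG00000004043.14, chr11:100859351-100885169, plus strand) and Stat3 (ENSMUSG00000004040.16, chr11:100885098-100939540, minus strand) follow one another on chromosome 11. Stat4 (ENSMUSG00000062939.11, chr1:51987148-52107189, plus strand) is on chromosome 1. Stat5b and Stat5a start back to back with 8626 bases between them. The 3′ ends of Stat5a and Stat3 run into each other over 72 bases on opposite strands, and Stat6 overlaps Nab2 by 40 bases in the same way. The library kit does not mark strand, so reads in those few bases cannot be assigned to a strand.

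Stat2 was the member whose transcripts differed most between the groups, and its promoter and that of Stat4 are shown because they carry the letters of an interferon-stimulated response element. Windows of 300 bases (RefSeq, GRCm38.p6), from 250 bases before to 50 after an annotated gene start, were available for all 6 genes, 9 windows in all. The core GAAANNGAAA was searched on both strands, as were STAT sites spelled TTCNNNGAA and TTCNNNNGAA. In the Stat2 window (chr10:128270248-128270547, plus strand) capitals mark first the response-element core, on the reverse strand 222 bases before the start, and then TTCNNNNGAA at 210 bases before it. In the second Stat4 window (chr1:52007990-52008289, plus strand), which belongs to an internal start, capitals mark the response-element core at 97 bases before the start.
Stat2: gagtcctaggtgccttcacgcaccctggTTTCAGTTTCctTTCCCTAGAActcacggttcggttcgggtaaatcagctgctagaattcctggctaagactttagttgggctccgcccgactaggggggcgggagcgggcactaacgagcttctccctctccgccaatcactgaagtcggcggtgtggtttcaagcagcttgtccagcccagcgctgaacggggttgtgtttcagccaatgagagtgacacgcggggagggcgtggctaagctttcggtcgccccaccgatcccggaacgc
Stat4: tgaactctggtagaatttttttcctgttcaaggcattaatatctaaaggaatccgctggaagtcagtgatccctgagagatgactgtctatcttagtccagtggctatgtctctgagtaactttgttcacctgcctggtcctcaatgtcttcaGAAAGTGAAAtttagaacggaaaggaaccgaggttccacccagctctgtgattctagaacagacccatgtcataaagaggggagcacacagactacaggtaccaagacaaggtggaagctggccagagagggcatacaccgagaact
The 2 motifs of the Stat2 window do not overlap. Across all 32851 RefSeq windows, 3.44% held GAAANNGAAA, 8.3% held TTCNNNGAA and 6.95% held TTCNNNNGAA. The windows of Stat3, Stat5a, Stat5b and Stat6, and the first window of Stat4, held none of these letters in order, and no member window held TTCNNNGAA. A match is a string of letters and was not tested for binding.

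Stat2 transcripts were 2.73-fold higher in regulatory T cells of the myeloma group (95% interval 2.18 to 3.42). Stat2 stood at 263, 204 and 263 CPM (reads scaled to a common library size by edgeR's TMM factors) in myeloma replicates 3, 4 and 5, against 87.5, 74.8 and 105 CPM in control replicates 1, 3 and 5. Every myeloma library was above every control library. These levels rest on 3104, 2052 and 2949 reads in myeloma libraries and on 1121, 871 and 1443 reads in control libraries. The log2 ratio of myeloma over control was 1.45 with an SE of 0.14, and the adjusted p of edgeR's quasi-likelihood test, corrected by Benjamini-Hochberg over all 13235 genes, was 0.000575. Stat2 was the 1 member of 6 called, at a threshold of 0.05 that 11.0% of all genes tested passed, 6.33% as higher and 4.69% as lower. Stat2 passed whichever library was left out, with log2 fold changes from 1.34 to 1.57. Its 95% interval, 1.12 to 1.78 on the log2 scale, lay above the intervals of the other 5 members.

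**Figure D1:**
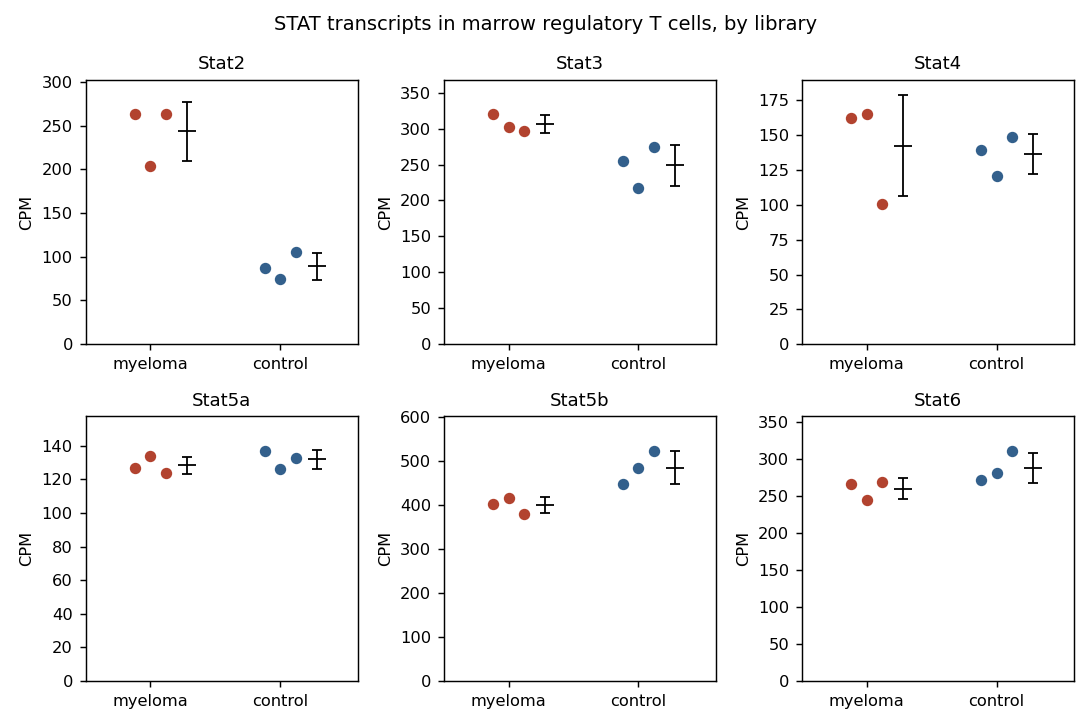
CPM of the 6 STAT genes in each library (points), with the mean and SD of each group beside them (3 libraries each) and every axis starting at 0. The 3 myeloma points of Stat2 lie between 204 and 263 CPM, above its control points, whereas those of Stat4 and Stat5a overlap the controls.

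Markers of other marrow cells also differed between the libraries. The 8 plasma cell markers together reached 283, 386 and 539 CPM in myeloma replicates 3, 4 and 5. In control replicates 1, 3 and 5 they reached 220.0, 198 and 145 CPM, and 2 of the 7 tested rose. T cells also express Xbp1, Prdm1 and Irf4 of this list, which held most of the control sums and were not called. The 2 that rose were Jchain and Sdc1. Jchain had 37.7, 118 and 199 CPM in myeloma against 3.67, 0.601 and 3.70 CPM in controls. Sdc1 had 1.10, 9.23 and 25.2 CPM in myeloma against 1.25, 0.601 and 1.45 CPM in controls. The 6 red cell markers summed to between 2501 and 3049.8 CPM in myeloma and between 4357 and 9605 CPM in controls, and 4 of the 6 fell. The 7 B cell markers summed to between 26.6 and 66.4 CPM in myeloma and between 42.6 and 271 CPM in controls, and 4 of the 7 fell. The sum of 8 macrophage and monocyte markers was 59.1, 139.8 and 440.1 CPM in myeloma replicates 3, 4 and 5, against 42.3 to 105 CPM in controls, and 1 of the 7 tested rose. The 8 neutrophil markers reached 133 to 458 CPM in myeloma against 62.6 to 179 CPM in controls, the 8 NK cell markers 4.23 to 8.48 against 3.09 to 4.14 CPM (1 of the 2 tested rose), and the 2 CD8 T cell markers 13.5 to 22.4 against 11.0 to 13.8 CPM. No marker of these lists was at 0 in all 6 libraries. The 6 regulatory T cell markers, Foxp3, Cd4 and Cd3e among them, summed to between 4148 and 4388 CPM in myeloma and between 3902 and 5244 CPM in controls. Stat2 itself was at 263, 204 and 263 CPM in myeloma replicates 3, 4 and 5. The part of other cells in the STAT levels was not tested.

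Stat3, the factor downstream of interleukin 6 and interleukin 10, had 320.0, 302 and 297 CPM in myeloma replicates 3, 4 and 5, against 255, 217 and 274 CPM in control replicates 1, 3 and 5. All 3 myeloma values were above all 3 control values (1.23-fold, 95% interval 1.05 to 1.44). The difference did not pass edgeR's test (log2 ratio 0.30, SE 0.10, adjusted p = 0.0866). DESeq2, which called 16.5% of the genes to which it gave an adjusted p, called Stat3 higher (0.29, adjusted p = 0.0399). Non-overlap of this kind was frequent, since 4 of the 6 members and 33.3% of all genes tested were separated in CPM.

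The weighted transcript length of Stat3 was separated between the groups, though an exact test of 3 against 3 libraries cannot call it. RSEM gives each gene a mean transcript length weighted by abundance, which moves when a gene's transcripts change in proportion. For Stat3 it was 3582, 3569.6 and 3649 bases in myeloma replicates 3, 4 and 5, against 3383, 3252 and 3354 bases in control replicates 1, 3 and 5. The 3 myeloma values were all longer, by 271 bases on average, with p = 0.1 in a two-sided exact permutation test, the smallest that 3 against 3 libraries allow. The table lists 14 Stat3 transcripts, 4 of them protein-coding, from 349 to 6042 bases, and it does not show which of them changed. Groups were separated in this way for 13.5% of the 9186 genes tested whose length varied, and for 1 of the 6 members, a share near that background. Stat4, Stat5a, Stat5b and Stat6 lengths overlapped between groups, and the 2 Stat2 transcripts are nearly equal in length.

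Per length the Stat3 difference was smaller. In TPM, the authors' level corrected for transcript length and library total, Stat3 had 128, 117 and 104 in myeloma replicates 3, 4 and 5, against 126, 102 and 139 in control replicates 1, 3 and 5, and the groups overlapped. With effective length as an offset in edgeR, the log2 fold change was 0.17 (adjusted p = 0.348). On the TPM scale the median gene was lower in myeloma by 0.20 (log2), and Stat3 was at -0.06, or 0.14 relative to that median.

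**Figure D2:**
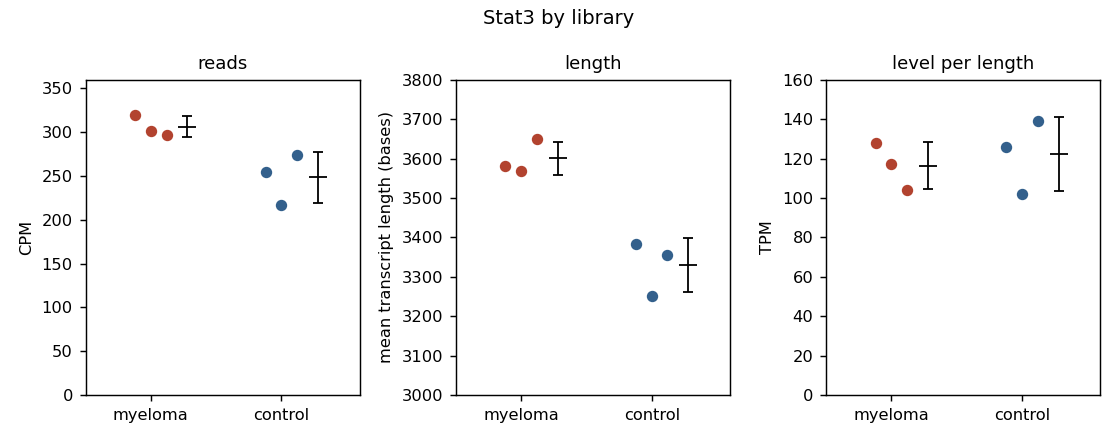
Stat3 by library: CPM, abundance-weighted transcript length in bases (axis not from 0) and TPM, with the mean and SD of 3 libraries beside the points. The myeloma points are all above the control points in CPM and in length, between 3569.6 and 3649 bases, and overlap the control points in TPM.

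Stat4, which relays interleukin 12 in type 1 helper cells, had 162, 165 and 100.4 CPM in myeloma replicates 3, 4 and 5, against 139, 121 and 149 CPM in control replicates 1, 3 and 5. Myeloma replicate 5 was lower than every control library and the other 2 myeloma libraries were higher. The log2 ratio was 0.06 (SE 0.18, 95% interval -0.34 to 0.46) with an adjusted p of 0.864 in edgeR's test. Without myeloma replicate 5 it was 0.25 (adjusted p = 0.161), and the sign turned without myeloma replicates 3 (-0.05) or 4 (-0.06) or control replicate 3 (-0.02). The Stat4 count was whole within 0.015 in only 1 of 6 libraries, so RSEM divided some of its reads with other genes. Gm28177, a processed transcript of at most 0.677 CPM, overlaps Stat4 by 29929 bases on the same strand. With Gm28177 added, the count was still whole in 1 of 6 libraries. Which genes shared these reads was not tested. Within the myeloma group, replicate 5 had the highest plasma cell, NK cell, B cell, CD8 T cell and macrophage marker sums, and replicate 4 the highest neutrophil and red cell sums. The regulatory T cell sum was 4388 CPM in replicate 5, against 4385 and 4148 CPM in replicates 3 and 4. Any link of these sums to the Stat4 level was not tested.

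Of the STAT5 pair, Stat5b had 401, 415 and 379 CPM in myeloma replicates 3, 4 and 5, against 447, 484 and 522 CPM in control replicates 1, 3 and 5. Every myeloma value was below every control value. Stat5b was at 0.823-fold (95% interval 0.715 to 0.947) and did not pass edgeR's test (log2 ratio -0.28, SE 0.09, adjusted p = 0.0777). It was called lower by DESeq2 (-0.29, adjusted p = 0.0125), by edgeR with library sizes alone (-0.35, adjusted p = 0.0433), where 12.4% of genes were called, and by limma on log2(TPM + 1) (-0.50, adjusted p = 0.0339, or -0.30 relative to the median gene), where 9.77% were.

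Stat5a had 127, 134 and 124 CPM in myeloma replicates 3, 4 and 5, against 137, 126 and 133 CPM in control replicates 1, 3 and 5, and the groups overlapped. In TPM, where the median gene was lower in myeloma, they were separate, at 50.3, 51.5 and 49.1 in myeloma against 65.4, 56.0 and 64.5 in controls, and limma on log2(TPM + 1) did not call Stat5a (-0.29, adjusted p = 0.116). Its log2 ratio was -0.04 (SE 0.08, 95% interval -0.21 to 0.14) with an adjusted p of 0.804 in edgeR's test. The ratio of Stat5b to Stat5a reads was 3.16, 3.10 and 3.05 in myeloma replicates 3, 4 and 5, against 3.27, 3.84 and 3.93 in control replicates 1, 3 and 5. All 3 myeloma ratios were lower (p = 0.1, two-sided exact permutation test, the smallest possible), whereas per length they overlapped, at 2.46, 2.34 and 2.16 in myeloma against 2.39, 2.82 and 2.86 in controls. RSEM divides reads between these paralogs: neither gene had a whole count in any library, while their sums were whole within 0.015 in 6 of 6 libraries. Summed into 1 row, the pair stood at -0.22 (log2; SE 0.09) and was not called, with an adjusted p of 0.126 in edgeR's test.

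Stat6, the factor of the interleukin 4 response, had 266, 244 and 269 CPM in myeloma replicates 3, 4 and 5, against 271, 281 and 310.4 CPM in control replicates 1, 3 and 5. The myeloma values were all lower, but the highest of them, 269 CPM, was next to the lowest control, 271 CPM. The log2 ratio was -0.15 (SE 0.09, 95% interval -0.34 to 0.05) with an adjusted p of 0.319 in edgeR's test. In TPM, where the median gene was lower in myeloma, the groups were also separate. Stat6 had 139.5, 106 and 129.8 TPM in myeloma against 159.7, 151 and 190.3 TPM in controls. On log2(TPM + 1) Stat6 was at -0.42, or -0.21 relative to the median gene. How many of all genes were separated in TPM was not counted. Stat6 was not called under any of 18 other settings.

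**Figure D3:**
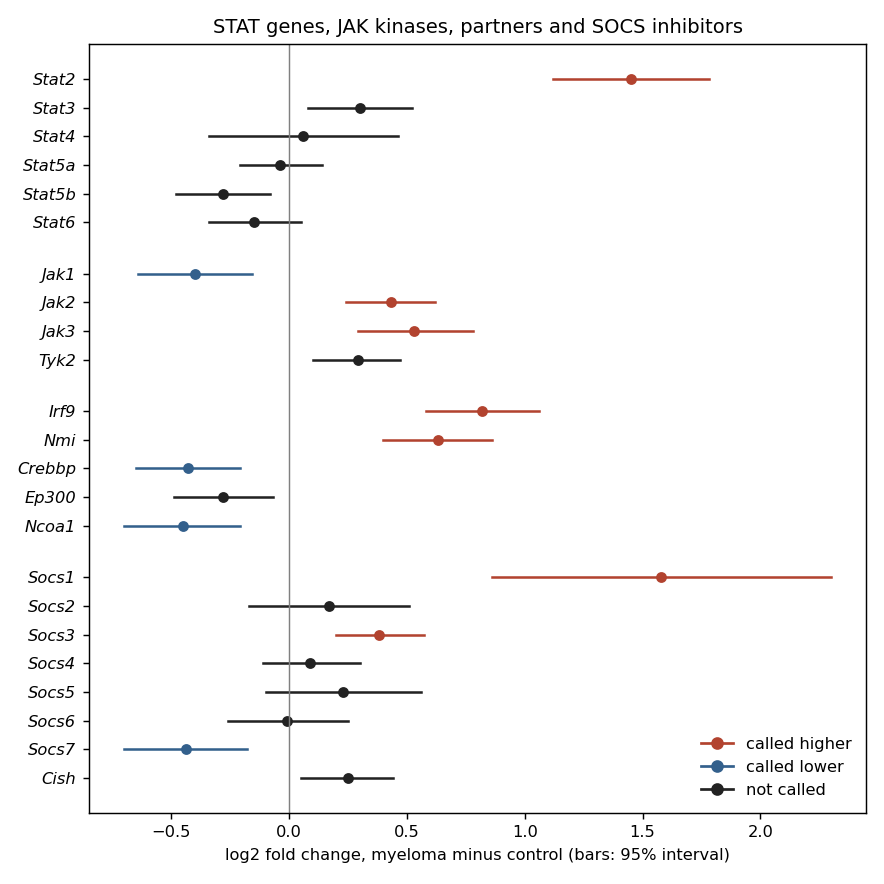
Log2 fold change (myeloma minus control) with its 95% interval for the 6 STAT genes, the 4 JAK kinases, 5 partners and 8 SOCS inhibitors, coloured by edgeR's call. Stat2, at 1.45, is the 1 STAT gene called, and the intervals of Stat3 and Stat5b lie on opposite sides of 0.

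Levels of different genes were compared per length, in TPM. In myeloma libraries the mean TPM ran from Stat6 (125 ± 17.2), Stat5b (117 ± 9.37) and Stat3 (116 ± 12.1) through Stat4 (91.5 ± 30.5) and Stat2 (74.8 ± 10.9) to Stat5a (50.3 ± 1.24; SD, n = 3 each). In control libraries it ran from Stat6 (167 ± 20.7) and Stat5b (166 ± 15.8) through Stat3 (122 ± 18.9), Stat4 (100.3 ± 11.3) and Stat5a (62.0 ± 5.19) to Stat2 (32.7 ± 7.25; SD, n = 3 each). Stat2 was thus the lowest of the 6 in control cells and above Stat5a in every myeloma library. Neighbours in the order had overlapping ranges among Stat6, Stat5b, Stat3, Stat4 and Stat2 in myeloma, and between Stat6 and Stat5b and between Stat3 and Stat4 in controls. The other neighbours were separate.

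As a share of the summed TPM of the 6 genes, Stat2 made up 13.5%, 11.0% and 14.6% in myeloma replicates 3, 4 and 5, against 5.09%, 4.39% and 5.49% in control replicates 1, 3 and 5. Stat5b made up 19.7%, 21.0% and 20.3% in myeloma against 24.3%, 27.2% and 25.3% in controls. Stat3 made up 20.4%, 20.4% and 19.9% in myeloma against 19.6%, 17.5% and 19.1% in controls. Each of these shares was separated between the groups (p = 0.1 each, two-sided exact permutation test, the smallest possible), while those of Stat4, Stat5a and Stat6 overlapped. Shares of 1 sum depend on each other, so a larger Stat2 share lowers the rest. The sum itself was 575 ± 53.4 TPM in myeloma and 650.4 ± 74.5 TPM in controls (SD, n = 3 each; p = 0.200, two-sided exact permutation test).

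**Figure D4:**
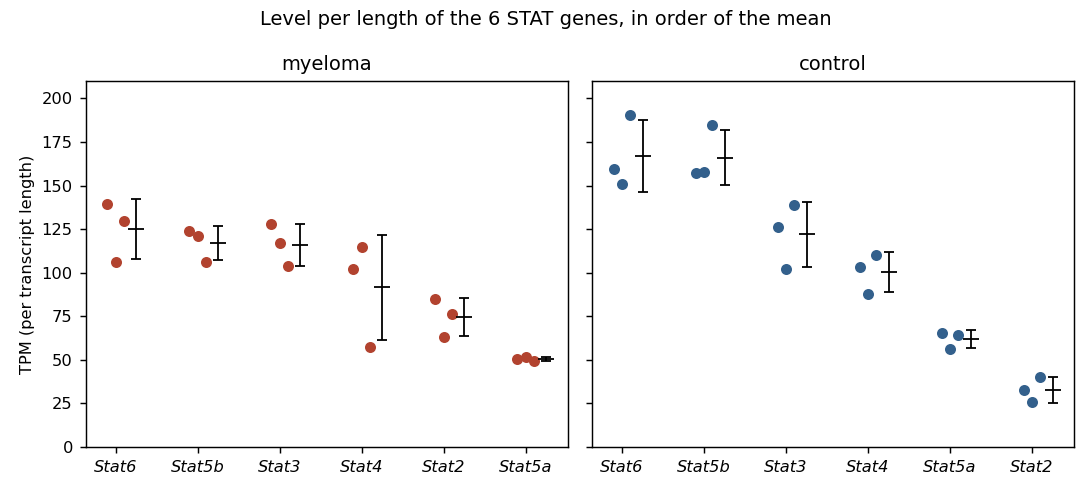
TPM of the 6 STAT genes in myeloma libraries (left) and control libraries (right), ordered by the mean, with points for libraries and bars for the SD of 3. Stat2 is last in controls, at 32.7 TPM, and lies above Stat5a in myeloma, at 74.8 TPM.

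Upstream of the STATs, the JAK kinases moved in both directions. Jak3, which pairs with the common gamma chain of the interleukin 2 receptor, rose (log2 ratio 0.53, SE 0.11, adjusted p = 0.0173) and so did Jak2 (0.43, SE 0.08, adjusted p = 0.0151). Jak1, used by most of these receptors, fell (-0.40, SE 0.11, adjusted p = 0.0445). Tyk2, which serves the interferon and interleukin 12 receptors, had 192, 169 and 183 CPM in myeloma against 153, 145 and 148 CPM in controls. It just missed the threshold (0.29, SE 0.08, adjusted p = 0.0541 by edgeR's test). Tyk2 passed in 2 of 18 alternatives, robust dispersion (0.0427) and DESeq2 (0.0287). It was not called with library sizes alone (0.21, adjusted p = 0.148 by edgeR) or whichever library was left out (0.0734 to 0.185). In TPM its groups overlapped, at 53.0 ± 5.27 in myeloma and 51.7 ± 4.04 in controls (SD, n = 3 each). Over the 4 kinases, 2 were called higher and 1 lower with a median of 0.36. Over all genes tested the median was 0.02 and 11.0% were called. Leaving out myeloma replicate 3 or control replicate 3 ended the call of Jak3 (adjusted p 0.0652 and 0.0795) and of Jak2 (0.0632 and 0.0594). Jak2 also failed without control replicate 5 (0.0568), and Jak1 failed whichever library was left out (0.0593 to 0.127) and with the effective-length offset (0.0502). On log2(TPM + 1), where the median gene was at -0.20, Jak2 was at 0.17 (adjusted p = 0.346) and Jak3 at 0.27 (0.216), neither called by limma.

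Among receptors, counted by the STAT they chiefly use, none of the 2 tested chains of the STAT2 group was called: Ifnar1, a chain of the type I interferon receptor, had 252, 251 and 267 CPM in myeloma and 282, 260.3 and 330.0 CPM in controls. In the STAT4 group Il12rb1, a chain of the interleukin 12 receptor, rose 0.95 on the log2 scale (SE 0.12, adjusted p = 0.0025), with 97.0 ± 5.71 CPM in myeloma against 50.1 ± 8.24 CPM in controls (SD, n = 3 each). Its partner chain Il12rb2 was too low to be tested. Of 8 chains of the STAT5 group 1 rose and none fell: Crlf2, a chain of the thymic stromal lymphopoietin receptor, had 93.1, 69.6 and 86.2 CPM in myeloma against 37.1, 33.3 and 48.5 CPM in controls (log2 ratio 1.06, SE 0.16, adjusted p = 0.00516). Over all genes tested 11.0% were called (6.33% higher and 4.69% lower), and 1 call among 8 chains is near 11.0%. Over the alternatives, 1 to 3 chains of the STAT5 group were called higher and 0 to 1 lower. Il15ra (0.64, adjusted p = 0.0553) and Il2rg (0.27, adjusted p = 0.0790) missed the threshold of edgeR's test. DESeq2 called both higher (0.0252 and 0.0146). Il15ra was called in 5 of 18 alternatives and Il2rg in 1. Il12rb1 and Crlf2 passed whichever library was left out. Il6ra of the STAT3 group (1 lower and none higher of 8 tested, median 0.10) fell by 0.52 (SE 0.14, adjusted p = 0.0442). Il10ra (0.38) and Il6st (-0.27) of that group were not called by edgeR's test, and DESeq2 called Il10ra higher (0.0241). Il4ra of the STAT6 group (1 lower of 2 tested, median 0.55) fell by 0.41 (SE 0.10, adjusted p = 0.0307). The other chain, Il13ra1, averaged 4.06 ± 0.957 CPM in myeloma and 1.42 ± 0.415 CPM in controls (SD, n = 3 each). Its groups did not overlap. Il13ra1 missed edgeR's threshold (adjusted p = 0.0553), and DESeq2 called it higher (0.0216). Il6ra kept its call only without myeloma replicate 3 or control replicate 1. It failed without myeloma replicates 4 (0.136) or 5 (0.0772) or controls 3 (0.153) or 5 (0.131). Il4ra kept its call only without control replicate 1, and was lost without myeloma replicates 3 (0.0585), 4 (0.0884) or 5 (0.0570) or control replicates 3 (0.116) or 5 (0.0942), or with the effective-length offset (0.0545).

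Of 5 partners of STAT proteins, 2 rose and 2 fell (median -0.28), where 11.0% of all genes tested were called. Irf9, the DNA-binding partner of STAT2, rose with 288, 287 and 266 CPM in myeloma against 158, 138 and 180.3 CPM in controls (log2 ratio 0.82, SE 0.11, adjusted p = 0.00273), and passed whichever library was left out. Nmi, which binds several STATs, rose by 0.63 (SE 0.10, adjusted p = 0.00721). On log2(TPM + 1), where the median gene was at -0.20, Nmi was at 0.42 and not called by limma (0.0531). The coactivators Crebbp (-0.43, SE 0.10, adjusted p = 0.0268) and Ncoa1 (-0.45, SE 0.11, adjusted p = 0.0313) fell. Crebbp lost its call without myeloma replicates 3 (0.0608) or 4 (0.0956) or control replicates 3 (0.0944) or 5 (0.0762), and with the effective-length offset (0.0535). On log2(TPM + 1) Ncoa1 was not called (0.0527). With 1 library left out it kept its call only without myeloma replicate 3, the adjusted p being 0.106 and 0.0605 without myeloma replicates 4 and 5, and 0.0640, 0.122 and 0.0680 without controls 1, 3 and 5.

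Of 8 SOCS inhibitors, some of which are induced by STATs and block JAKs or their receptors, 2 rose and 1 fell (median 0.20). Over all genes tested 11.0% were called. Socs1 had 153, 123 and 121 CPM in myeloma against 30.1, 28.8 and 73.3 CPM in controls (log2 ratio 1.58, SE 0.32, adjusted p = 0.0173). It lost its call without myeloma replicates 3 (0.0604) or 4 (0.0601) or control replicate 3 (0.0635), and with robust dispersion (0.0918). Socs3, the inhibitor of interleukin 6 receptor signalling, rose by 0.38 (SE 0.08, adjusted p = 0.0198) and was not called without myeloma replicate 3 (0.0790) or controls 1 (0.0567) or 3 (0.0911). On log2(TPM + 1), where the median gene was at -0.20, Socs3 was at 0.10 and not called (0.590). With the effective-length offset Socs3 was not called either (0.0553). Socs7 fell by 0.44 (SE 0.11, adjusted p = 0.0424) and lost its call whichever library was left out (0.0659 to 0.126), in limma-voom (0.0518) and on log2(TPM + 1) (0.0554). None of the 5 phosphatases (median -0.14) or 4 PIAS proteins (median -0.15) was called with TMM scaling. Pias1 was called lower with library sizes alone (-0.33, adjusted p = 0.0467 by edgeR) and on log2(TPM + 1) (-0.49, 0.0424 by limma). The median gene was at -0.05 and -0.20 under those settings.

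Genes often listed as targets were counted for each STAT, in lists chosen with earlier results of these data known. Over all genes tested, 6.33% were called higher and 4.69% lower. Of 20 targets of STAT2 with IRF9, all tested, 20 rose (median log2 fold change 2.57), and 20 rose whichever library was left out. Given how the list was chosen, this count is no independent support. Their smallest p-values belonged to Bst2, Isg15, Mx1 and Ifi44, with log2 fold changes of 2.38 to 4.34. Of 17 tested STAT3 targets 4 rose and 3 fell (median -0.02). Bcl3, a regulator of NF-kB, had 105, 106 and 119 CPM in myeloma against 53.8, 39.9 and 56.5 CPM in controls (1.13, SE 0.13, adjusted p = 0.00163), and Batf, an effector T cell factor, rose by 0.83 (SE 0.13, adjusted p = 0.00721). Fos (-2.19, SE 0.39, adjusted p = 0.0110), an immediate early gene with many inducers, fell, and was not called without myeloma replicate 3 (0.0503) or with robust dispersion (0.0840). The STAT3 count was 3 without myeloma replicate 3 (3 higher) or control replicate 3 (2 higher and 1 lower).

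Of 10 tested STAT4 targets 3 rose and none fell (median 0.70). Tbx21, the type 1 helper factor T-bet, averaged 28.6 ± 6.31 CPM in myeloma and 7.17 ± 2.92 CPM in controls (SD, n = 3 each), with no overlap (log2 ratio 1.99, SE 0.28, adjusted p = 0.00416 by edgeR's test). Cxcr3, a chemokine receptor gene of type 1 helper cells, also rose (1.06, SE 0.19, adjusted p = 0.0117) and was not called without control replicate 3 (0.0552). The NK cell markers of the same libraries are given above. Of 18 STAT5 targets 3 rose and 1 fell (median 0.10): Gzmb, which encodes granzyme B (2.89, SE 0.14), Tnfrsf4, a costimulatory receptor (0.98, SE 0.15), and Socs1 rose, and Bcl2, a survival gene, fell (-0.83, SE 0.18, adjusted p = 0.0212). Bcl2 was not called without myeloma replicate 3 (0.0707) or controls 3 (0.0716) or 5 (0.0745). Foxp3, Il2ra and Cish, which also depend on STAT5, were not called by edgeR's test, at -0.15, -0.24 and 0.25. On log2(TPM + 1), where the median gene was at -0.20, limma called Il2ra lower (-0.53, adjusted p = 0.0225). DESeq2 called Cish higher (0.24, adjusted p = 0.0470). The STAT5 count was 2 without myeloma replicate 3 or control replicate 3.

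Of 11 tested STAT6 targets 4 rose and 2 fell (median 0.25). Gfi1, a transcriptional repressor, rose by 0.62 (SE 0.11, adjusted p = 0.0109), as did Maf (0.89, SE 0.17, adjusted p = 0.0133), Batf and Socs1, the last 3 counted in other lists too. On log2(TPM + 1), where the median gene was at -0.20, Gfi1 was at 0.31 (adjusted p = 0.146) and Maf at 0.64 (0.0513), neither called by limma. The 2 that fell were Il4ra and Fcer2a, a B cell gene that is also among the B cell markers above, at 0.0846 to 1.43 CPM in myeloma against 1.64 to 16.9 CPM in controls. The count was 2 without control replicate 3, where Maf lost its call (0.0655), and 3 without myeloma replicates 3 or 4. Of the 115 genes of the pathway and target lists, 13 belong to more than 1 list.

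**Figure D5:**
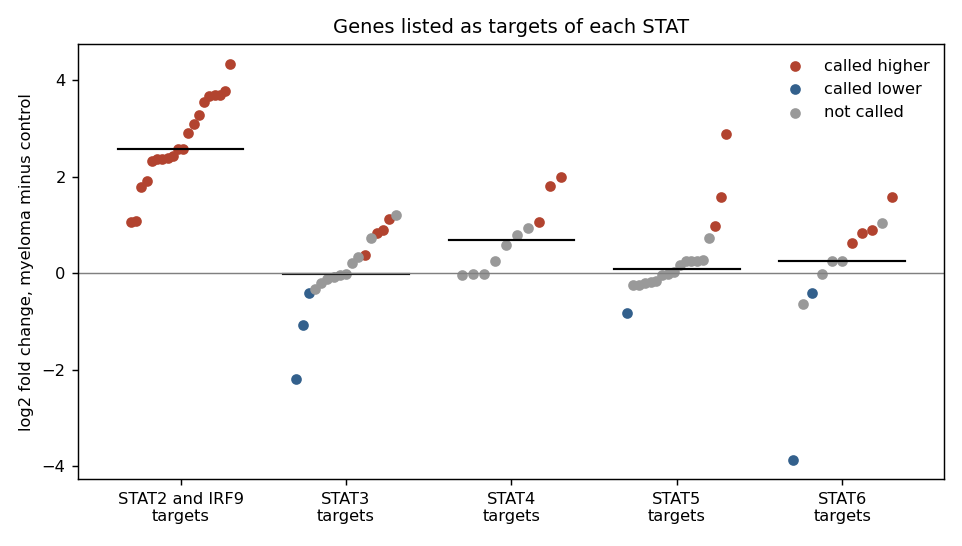
Log2 fold change (myeloma minus control) of genes listed as targets of each STAT, with 1 point per tested gene, its colour showing edgeR's call, and a line at the list's median. All 20 points of the STAT2 and IRF9 list are above 0, with a median of 2.57, and the other lists hold points on both sides of 0. The lists were chosen with earlier results of these data known.

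Profiles were compared after centring each gene's log2 CPM on its mean, as the root-mean-square difference over the 6 libraries. Each STAT gene was set beside 9533 genes in this way. The profiles most like Stat2 were Ifi213, an interferon-inducible gene of the Ifi200 family (0.077), Parp9, an ADP-ribosyltransferase family gene (0.084), and Tgtp1, an interferon-inducible GTPase gene (0.099), where the median gene differed from Stat2 by 0.77. Parp9 had 224, 195 and 218 CPM in myeloma and 69.2, 62.4 and 89.2 CPM in controls, and like Stat2 it was lowest in myeloma replicate 4 and control replicate 3. Ifi213 and Tgtp1 belong to families of similar genes, and whether reads were divided among relatives was not tested. Nearest to Stat3 were Kmt5c, a histone methyltransferase gene (0.046), Rfx2 (0.048) and Ints9, a subunit of the Integrator complex (0.050), none of them called. Nearest to Stat4 were Crybg1 (0.050), Psmg3 (0.054) and Kctd1 (0.058), which shared its low value in myeloma replicate 5: Crybg1 had 161, 161 and 102 CPM in myeloma. Nearest to Stat5a were Sap25, Trim35 and Parp2 (0.017 to 0.025), to Stat5b Eps15l1, Smad5 and Fgd3 (0.025 to 0.031), and to Stat6 Aqr, Nfe2l1 and Hnrnpul2 (0.017 to 0.024), none of them called. These are descriptions over 6 libraries.

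The protein-coding neighbours of the STAT genes outside the family were low or not called. Apof, which ends 405 bases before Stat2, and Il23a, which lies 3289 bases after it, averaged 0.184 ± 0.161 and 0.333 ± 0.336 CPM in myeloma and 0.208 ± 0.360 and 0.110 ± 0.133 CPM in controls (SD, n = 3 each), too low to be tested. Nab2, whose end overlaps that of Stat6, averaged 67.6 ± 11.6 CPM in myeloma and 62.1 ± 9.85 CPM in controls (log2 ratio 0.12, SE 0.15, adjusted p = 0.643 by edgeR's test). On the far side of Stat6, Lrp1, the low density lipoprotein receptor-related gene of macrophages and other cells, had 42.3 CPM in myeloma replicate 5 and 2.58 to 4.84 CPM in the other 5 libraries. That is the library with the highest macrophage marker sum.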

How the data were processed

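Total RNA of sorted CD4+ FOXP3-GFP+ marrow cells (RNeasy Micro) went into NEBNext Ultra libraries, per the labels' protocols. STAR, RSEM, Picard, DESeq2 and the build mm10 are named in the submitters' processing notes, while the sources used here give neither versions nor settings. Each deposited table holds 1 library. The authors' expected counts are RSEM estimates of reads per gene, not normalized, per the file headers. The deposited TPM and FPKM values are scaled for library total and effective length by the authors' RSEM run. FPKM was not used. Transcript and effective lengths are columns of the same deposited tables.

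Counts were rounded. Genes passed edgeR's filterByExpr (minimum count 10, total 15), were TMM-scaled and went through glmQLFit and glmQLFTest of edgeR 4.0.16 in R 4.3.3. P-values of myeloma against control were adjusted by Benjamini-Hochberg over the 13235 genes left, and genes were called at 0.05. CPM uses TMM-scaled library sizes. SE is the log2 ratio over the root of its F statistic. The common biological coefficient of variation was 0.202. Depth ranged from 10240620 to 13314631 expected counts per library. Of the gene IDs, 47224 matched reference names.

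The STAT genes and all lists were chosen with earlier results of these data known, so the interferon list is no independent support. Other genes of the family are not described here, and 1 gene counted in a target list is not reported by name. Named genes are the 6 STAT genes, up to 4 genes with the smallest p per list, protein-coding neighbours, and the 3 nearest profiles per STAT gene (mean of at least 5 CPM, log2 CPM with prior count 2). A few others (Foxp3, Il2ra, Cish, Il12rb2, Fcer2a, Il4ra among the STAT6 targets, Jchain, Sdc1, Gm28177) were named after their values were seen. Alternatives were other scalings and filters, an effective-length offset, DESeq2 1.42.0, limma 3.58.1 (voom, or log2(TPM + 1)), robust dispersion, a fit without haemoglobin, immunoglobulin and mitochondrial genes, a replicate block, and leaving out each library.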

Additional observations from a re-analysis of the deposited data

How the results depend on the processing

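Stat2 kept its direction and its call under all 18 alternatives (log2 fold change 1.18 to 1.57), and Stat5a and Stat6 stayed below 0 and uncalled. Of the 6 members 1 was called with all settings but 3: DESeq2 called 3, and library sizes alone and limma on log2(TPM + 1) called 2 each. Stat3 was at 0.29 with DESeq2 (called) and -0.06 on log2(TPM + 1). Stat5b was called at -0.35 with library sizes alone, -0.29 with DESeq2 and -0.50 on log2(TPM + 1). Stat4, never called, turned to -0.01 with library sizes alone, -0.08 with the replicate block and -0.19 on log2(TPM + 1). Relative to the median gene of each setting, Stat4 was at 0.04, -0.09 and 0.02. It ranged from -0.06 to 0.25 when 1 library was left out.

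Over all genes, 1459 were called (838 higher, 621 lower), 2439 with no filter, 504 with the replicate block, and 454 to 1382 when 1 library was left out, where fewer samples alone lower the count. The split was 633 higher and 1004 lower with library sizes alone and 275 and 1018 on log2(TPM + 1). The groups share only the replicate numbers 3 and 5, and nothing in the labels says these mark a shared animal or day. Deviations from the group means correlated at 0.03 and 0.1 for those numbers, so the replicate block is no paired test. With that block, Jak1, Jak2, Il6ra, Il4ra, Nmi, Crebbp, Ncoa1, Socs1, Socs3, Socs7 and Gfi1 were no longer called.

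Of genes beside the family that were not called, Ifnar2 (0.02) turned to -0.05 with library sizes alone, -0.02 with the replicate block and -0.17 on log2(TPM + 1), with -0.07 to 0.13 when 1 library was left out. Pias4 turned to -0.05 with the effective-length offset and -0.26 on log2(TPM + 1), Il2rg to -0.01 on log2(TPM + 1), and Ptpn11 to 0.03 with the replicate block. With 1 library left out Ptpn11 ranged from -0.14 to 0.00 and Csf3r from -0.08 to 2.14. The median gene itself was at -0.05 with library sizes alone and at -0.20 on log2(TPM + 1). The cause of these turns was not tested. With 3 libraries a group, differences as small as those of Stat3 and Stat5b lie at the edge of what the test calls.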
